A study of Gallus gallus with 6 samples.

Results

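The genes described here build the kinetochore, the protein structure that ties a chromosome to the spindle, and the spindle checkpoint that watches over it. They were chosen by name: 40 genes of the inner and outer kinetochore, the checkpoint and the chromosomal passenger complex, looked up by symbol in the annotation of the chicken array. Of these, 35 were found, with 64 probe sets among the 38382 that were analysed; 19 genes had over 1 probe set and 16 had 1. CENPA, SPC24, SKA1, SKA2 and CDCA8 were not found and were not analysed here. Each gene is given by its brightest probe set, judged by its mean log2 intensity over the 6 arrays, and the other probe sets are described where they disagree.

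A kinetochore forms on the centromere at each cell division. Its base is the constitutive centromere associated network (CCAN), which sits on centromeric chromatin through the whole cell cycle, and on it the MIS12 and NDC80 complexes assemble for mitosis, the latter gripping the microtubules. The checkpoint kinases and MAD and BUB proteins delay anaphase while any kinetochore is unattached, and Aurora B, the kinase of the passenger complex, releases faulty attachments. The mature basilar papilla (BP), the hearing epithelium of the bird, holds almost no dividing cells, and after its hair cells (HCs) are killed by an aminoglycoside its supporting cells (SCs) divide and replace them.

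RNA came from the basal part of the BP of wild type chicks aged 12 to 16 days, and each array received RNA pooled from several papillae. The groups were untreated controls and chicks of the same age at 48 and at 72 hrs after gentamicin, an ototoxic antibiotic, with 2 arrays per group. Titles name the arrays of a group biological replicates 1 and 2, whereas by source name the control arrays are both numbered 2, as are those at 48 hrs; the titles were followed. With whole tissue, more dividing cells and more RNA per dividing cell cannot be told apart, and p values measure only the spread between pools.

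The arrays had median intensities from 26.5 to 30.2, and 51.7% to 54.4% of the probe sets on an array lay under an intensity of 32, which is 5 on the log2 scale. Summed intensities of SC genes (13 found, among them SOX2, TECTB and GJB6) ran from 39530 to 44795 over the arrays. The brightest, such as GJB6 and TECTB, weigh most in these sums, and OTOG lay at 4.48 to 5.38 on the log2 scale. HC genes (14 found) summed to 5260 and 5409 in the controls, 4260 and 4395 at 48 hrs, and 4588 and 4981 at 72 hrs. USH1C, at 11.50 and 11.61 in the controls, weighed most in these sums. Control replicate 1 stood apart in the sum of connective tissue genes (8 found, 3105 against 517 to 891 on the other 5 arrays). DCN (10.09), COL1A1 (9.93) and LUM (9.04) weighed most in that sum. PDGFRB and OGN were also highest on that array, whereas COL1A2, COL3A1 and POSTN did not stand apart there. HINTW, a gene of the female W chromosome, had log2 intensities of 11.51 and 11.09 in the controls, 10.79 and 11.60 at 48 hrs, and 3.93 and 3.72 at 72 hrs. Sex of the pooled chicks and time after gentamicin cannot therefore be told apart in any value for 72 hrs.

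At 72 hrs after gentamicin the kinetochore genes stood higher than in the control BP, whereas at 48 hrs their median lay near that of all genes. The median log2 fold change of the 35 genes was 0.67 at 72 hrs, ranging from -0.38 to 3.28, with 30 genes above 0, whereas the median over all 13009 genes of the array was 0.01. With all intensities under 32 set to 32 the median of the kinetochore genes was 0.44. At 48 hrs the median of the kinetochore genes was 0.09, with 21 of 35 above 0, and that of all genes 0.01. Both comparisons use the same 2 control arrays.

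A fold rule without a test, a difference of group means over 0.6 on the log2 scale in either direction, was passed upwards by 21 of 35 kinetochore genes at 72 hrs, against 9.28% of all genes. None passed it downwards, against 6.26% of all genes. In 15 genes it was passed upwards in both replicates taken separately (3.3% of all genes), with arrays matched by the number in their titles. In 22 genes both 72 hr arrays lay above both control arrays (15.9%). No gene had both 72 hr arrays below both controls (12.9%). Among the 28 kinetochore genes whose brightest probe set had a mean over the median of all probe sets, 16 passed upwards, against 5.12% of all genes that bright. That mean includes the 72 hr arrays. NDC80, MIS12 and CENPE, for example, had control and 48 hr means under the median (4.76) and were let in by their 72 hr arrays. The count is therefore not independent of the rise at 72 hrs. Over the 35 genes, 16 instead of 21 passed the fold rule upwards with quantile normalization, and 16 with equal array medians. The share of all genes under these settings is not given here.

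**Figure D1:**
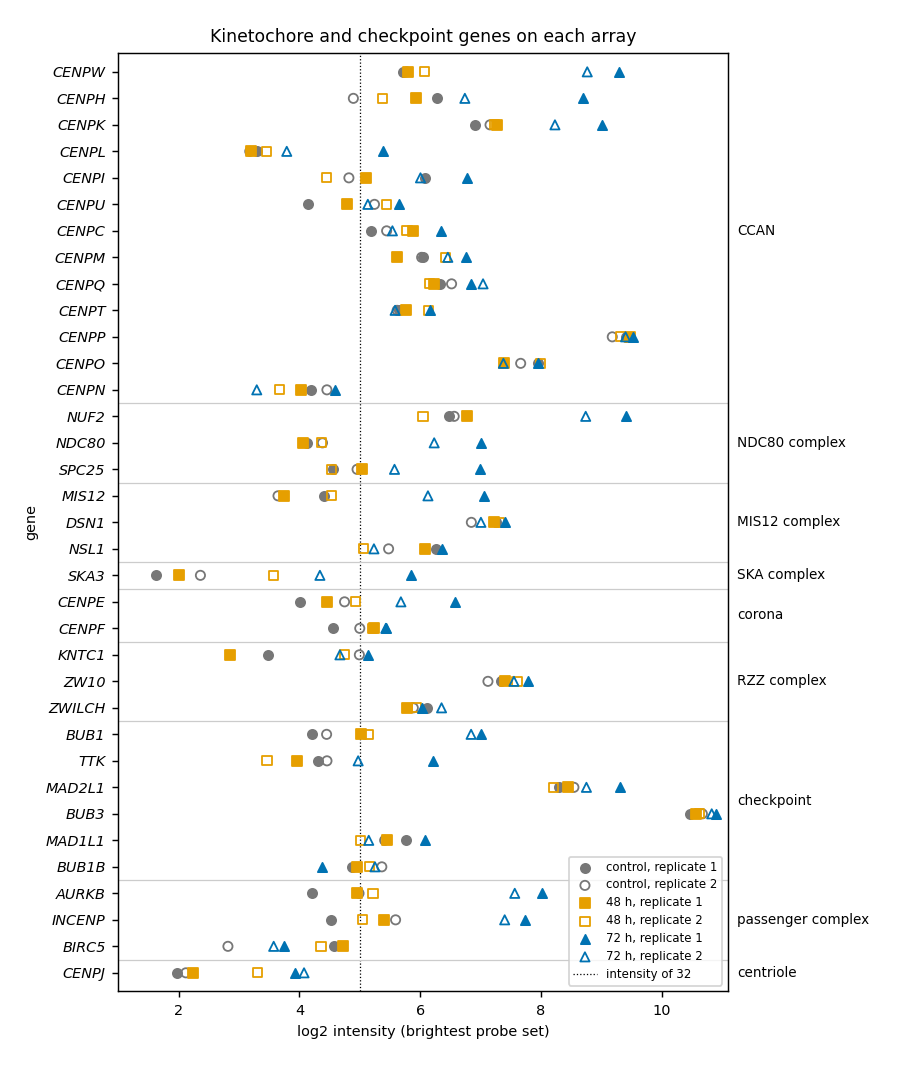
The log2 intensity of the brightest probe set (horizontal axis) on each of the 6 arrays for the 35 genes, grouped by complex and ordered within it by the change at 72 hrs. Filled symbols are replicate 1 and open symbols replicate 2; in CENPW, NUF2, MIS12, AURKB and INCENP both 72 hr arrays lie well to the right of the control and 48 hr arrays.

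Limma, a linear model fitted over all 38382 probe sets with Benjamini-Hochberg adjustment, called 3 of the 35 genes higher at 72 hrs (0.131% of all genes were called higher), namely CENPW, AURKB and BUB1. None was called lower (0.0538%), and of the 15 genes with an unadjusted p under 0.05 all were higher (2.34% of all genes were higher with such a p). Over probe sets, 4 of 64 were called higher, against 0.0469% of all probe sets, the fourth being a dimmer probe set of BUB1B. With 2 arrays a group these calls are fragile. The 3 genes lost them when any of the 6 arrays was left out, when intensities under 32 were set to 32 and when the variance was fitted without its trend on intensity. Their log2 fold changes stayed between 1.93 and 3.59 under these settings. BUB1 also lost its call when all its probe sets were averaged, with a difference of 1.19 (adjusted p = 0.97).

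CENPW, a small histone fold protein of the CCAN that pairs with CENPT, showed the largest change of the 35 genes. Its log2 intensity was 5.72 and 5.78 in the controls, 5.80 and 6.07 at 48 hrs, and 9.29 and 8.77 at 72 hrs. The 72 hr arrays stood far above the other 4, which lay close together. CENPW rose by 3.28 (9.72-fold; SE 0.28, n = 2 arrays a group, limma adjusted p = 0.013) and ranked 16 among the 13009 genes by its change. Its partner CENPT, at 5.65 and 5.62 in the controls and 6.16 and 5.59 at 72 hrs, differed by 0.24 (SE 0.34), and its 72 hr arrays overlapped with the controls.

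The rest of the CCAN was divided. Of its 13 genes, all found, 7 passed the fold rule upwards at 72 hrs and 5 did so in both replicates, with a median of 0.63. CENPH and CENPK, subunits that bind each other within the network, were among the higher ones. CENPK gave 6.91 and 7.16 in the controls, 7.27 and 7.23 at 48 hrs, and 9.01 and 8.23 at 72 hrs, a difference of 1.59 (SE 0.30, limma adjusted p = 0.37). CENPH gave 6.28 and 4.89 in the controls, 5.93 and 5.38 at 48 hrs, and 8.70 and 6.74 at 72 hrs, a difference of 2.13 (SE 0.68, limma adjusted p = 0.996). For both, every 72 hr array lay above every other array, by little in CENPH, whose control arrays were far apart. They are the 2 kinetochore genes on the Z chromosome of the assembly GRCg7b, where females carry a lone copy. In the 434 Z genes that were bright enough the median difference at 72 hrs was 0.28, against -0.01 in the 8903 other bright genes, and the part of the pools' sex in CENPH and CENPK was not tested.

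CENPI, a partner of CENPH and CENPK, gave 6.09 and 4.82 in the controls, 5.11 and 4.45 at 48 hrs, and 6.77 and 6.01 at 72 hrs. Its groups overlapped at 72 hrs, and the difference of 0.94 had an SE of 0.51. CENPC, which links centromeric nucleosomes to the MIS12 complex, gave 5.18 and 5.45 in the controls, 5.89 and 5.78 at 48 hrs, and 6.35 and 5.54 at 72 hrs, so that it was already 0.52 above the controls at 48 hrs and 0.63 at 72 hrs, with an SE of 0.37 each. Replicate 2 carried little of that later difference (0.10, against 1.17 in replicate 1). CENPL was higher by 1.35 (SE 0.59) from intensities mostly under 32, and CENPU by 0.69 (SE 0.48), with overlapping groups. The other CENPL probe set gave 0.62 (SE 0.66) with overlapping groups. It was brighter than the first at 48 hrs (mean 3.95 against 3.33) and dimmer at 72 hrs (3.79 against 4.59).

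Other CCAN genes did not pass the fold rule by their brightest probe set. CENPP, the brightest of them, gave 9.40 and 9.18 in the controls and 9.53 and 9.40 at 72 hrs, a difference of 0.17 with a 95% confidence interval from -0.28 to 0.62. Its other probe set, also bright, was higher by 0.81 (interval 0.13 to 1.5, limma adjusted p = 0.996), past the fold rule and without overlap. CENPO, a subunit of the same branch of the network, gave 7.96 and 7.67 in the controls, 7.38 and 8.0 at 48 hrs, and 7.95 and 7.38 at 72 hrs, a difference of -0.15 (interval -0.87 to 0.58). The intervals of these brightest probe sets leave out a difference as large as that of CENPW. CENPM and CENPQ were higher by 0.57 (SE 0.35) and 0.52 (SE 0.27), under the fold rule, although their 72 hr arrays all lay above the controls. CENPN, a dim gene at 4.19 and 4.46 in the controls, 4.03 and 3.67 at 48 hrs, and 4.59 and 3.29 at 72 hrs, had the lowest difference of the 35, -0.38 (SE 0.53), with overlapping groups.

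The NDC80 complex, the microtubule coupler, was higher in every subunit found. NUF2, which forms the microtubule-facing dimer with NDC80, gave 6.48 and 6.56 in the controls, 6.78 and 6.05 at 48 hrs, and 9.42 and 8.74 at 72 hrs. The 48 hr arrays lay on both sides of the controls and the 72 hr arrays over 2 log2 units above them. NUF2 was higher by 2.56 (5.90-fold; SE 0.34) and did not pass limma (adjusted p = 0.082). NDC80 gave 4.13 and 4.38 in the controls, 4.05 and 4.36 at 48 hrs, and 7.01 and 6.23 at 72 hrs, a difference of 2.37 (SE 0.40, limma adjusted p = 0.23). SPC25, of the dimer that anchors the complex to the inner kinetochore, was higher by 1.53 (SE 0.51), with replicate 1 at 2.44 and replicate 2 at 0.62. Its dimmer probe set gave 0.83 (SE 0.66) with overlapping groups.

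In the MIS12 complex, the bridge between CCAN and NDC80 complex, only MIS12 passed the fold rule. MIS12 gave 4.41 and 3.65 in the controls, 3.75 and 4.53 at 48 hrs, and 7.06 and 6.13 at 72 hrs. Its groups at 72 hrs and before did not overlap, and the difference was 2.57 (SE 0.50, limma adjusted p = 0.40). By title number it was 2.65 in replicate 1 and 2.48 in replicate 2, but nothing shows that same-numbered arrays belong together. The other subunits found were brighter in the controls. DSN1 differed by 0.15 (interval -0.49 to 0.79). NSL1, at 6.27 and 5.48 in the controls, 6.08 and 5.06 at 48 hrs, and 6.37 and 5.24 at 72 hrs, differed by -0.07 (SE 0.52), and within each group its replicate 2 array was the lower.

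Among the remaining outer kinetochore genes, the SKA complex, which follows shrinking microtubules, was represented by SKA3. This gene was dim, at 1.63 and 2.36 in the controls, 2.00 and 3.57 at 48 hrs, and 5.86 and 4.34 at 72 hrs, so its difference of 3.11 (SE 0.75, limma adjusted p = 0.88) rests largely on intensities under 32; with a floor of 32 it was 0.43. CENPE, the kinesin that carries chromosomes to the spindle equator, gave 4.02 and 4.75 in the controls, 4.46 and 4.93 at 48 hrs, and 6.57 and 5.68 at 72 hrs. It was higher by 1.74 (SE 0.46), and its 72 hr arrays did not overlap with the others. The other CENPE probe set, a dim one, gave 1.17 (SE 1.01) with overlapping groups. CENPF, a large protein of the outer corona, gave 4.55 and 5.0 in the controls, 5.23 and 5.21 at 48 hrs, and 5.44 and 5.43 at 72 hrs, a difference of 0.66 (SE 0.34).

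The RZZ complex, which brings dynein and the MAD1 and MAD2 proteins to unattached kinetochores, had 1 of its 3 genes past the fold rule. That gene was KNTC1, dim and with overlapping groups, which was higher by 0.67 with an interval from -1.03 to 2.37. ZW10 was higher by 0.43 (SE 0.24), and both its 72 hr arrays lay above both controls. ZWILCH gave 6.11 and 5.89 in the controls, 5.79 and 5.94 at 48 hrs, and 6.04 and 6.36 at 72 hrs, with overlapping groups and a difference of 0.20 (SE 0.30).

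Of the 6 checkpoint genes, 3 passed the fold rule at 72 hrs: BUB1, TTK and MAD2L1. BUB1, a kinase that marks centromeric chromatin and recruits other checkpoint proteins, gave 4.21 and 4.45 in the controls, 5.02 and 5.15 at 48 hrs, and 7.01 and 6.84 at 72 hrs. The arrays of its 3 groups formed separate, tight pairs. BUB1 rose by 2.60 at 72 hrs (6.05-fold; SE 0.32, limma adjusted p = 0.049). At 48 hrs it was higher by 0.75 (SE 0.32), the sole kinetochore gene with an unadjusted p under 0.05 at that time (limma, 0.046 unadjusted and 1 after adjustment).

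TTK, the MPS1 kinase that starts checkpoint signalling, gave 4.31 and 4.46 in the controls, 3.96 and 3.46 at 48 hrs, and 6.22 and 4.97 at 72 hrs. The 48 hr arrays lay below the controls and the 72 hr arrays above them; the differences were -0.67 (SE 0.50) and 1.21 (SE 0.50). MAD2L1, the MAD2 protein that captures CDC20, was bright in all groups (8.30 and 8.55 in the controls, 9.31 and 8.75 at 72 hrs) and higher by 0.61 (SE 0.26). Its other probe set, a dim one, gave 0.25 (SE 0.66) with overlapping groups. BUB3, the WD40 protein that carries BUB1 and BUB1B to the kinetochore, was the brightest of the 35 genes, at 10.47 and 10.68 in the controls and 10.90 and 10.83 at 72 hrs, a difference of 0.29 with an interval from -0.10 to 0.68. MAD1L1, the kinetochore receptor of MAD2, gave 5.77 and 5.41 in the controls, 5.46 and 5.02 at 48 hrs, and 6.08 and 5.15 at 72 hrs, a difference of 0.02 (SE 0.41). The interval of this MAD1L1 probe set ran from -0.93 to 0.98, and that of the other (difference -0.35) from -1.38 to 0.69.

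BUB1B, the BUBR1 protein of the mitotic checkpoint complex, depended on the probe set. Its brightest one, at 4.86 and 5.37 in the controls, 4.95 and 5.16 at 48 hrs, and 4.37 and 5.25 at 72 hrs, differed by -0.30 (SE 0.42) with overlapping groups. The other gave 3.05 and 2.76 in the controls, 3.39 and 2.94 at 48 hrs, and 8.51 and 8.34 at 72 hrs. This dimmer probe set rose by 5.52 on the log2 scale (45.9-fold; SE 0.37, limma adjusted p = 0.0058), more than any other of the 64, alike in replicate 1 (5.46) and replicate 2 (5.58). Since its control and 48 hr values lie under 32, the size of the change is uncertain: with a floor of 32 it was 3.43 (limma adjusted p = 0.24). Leaving out either 48 hr array kept the call (adjusted p = 0.028 and 0.032), and leaving out any other array ended it (0.11 to 0.42).

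In the chromosomal passenger complex the kinase and its scaffold were higher. AURKB, Aurora B, gave 4.21 and 4.99 in the controls, 4.96 and 5.22 at 48 hrs, and 8.02 and 7.57 at 72 hrs. The 72 hr arrays stood over 2 log2 units above all others, and AURKB rose by 3.20 (9.17-fold; SE 0.37, limma adjusted p = 0.043). INCENP, the scaffold that activates it, gave 4.52 and 5.59 in the controls, 5.40 and 5.04 at 48 hrs, and 7.74 and 7.40 at 72 hrs, a difference of 2.51 (SE 0.41, limma adjusted p = 0.21). BIRC5 (survivin), the subunit that reads the centromeric mark, was dim, at 4.57 and 2.82 in the controls, 4.72 and 4.36 at 48 hrs, and 3.74 and 3.57 at 72 hrs; its difference of -0.03 has an interval from -1.45 to 1.38, so neither a rise nor a fall was detectable. CENPJ, a centriole protein that shares only the CENP name, was higher by 1.95 (SE 0.57) with every array under 32.

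**Figure D2:**
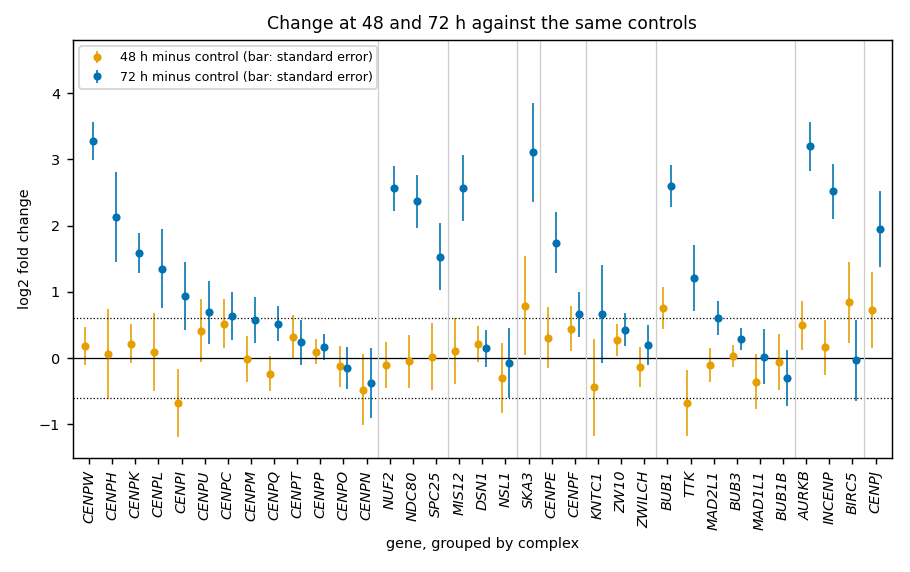
Log2 fold change against the same 2 controls at 48 hrs (orange) and 72 hrs (blue) for the 35 genes, grouped by complex in the order of the plot of levels; points are differences of 2-array means, bars the limma standard error and dotted lines the fold rule at 0.6. The 48 hr points stay between -0.67 and 0.84, while the 72 hr points reach 3.28 in CENPW.

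At 48 hrs few kinetochore genes differed from the controls. Limma called none of the 35 (0% of all genes were called higher at that time). By the brightest probe sets 1 of them, BUB1, had an unadjusted p under 0.05 (1.38% of all genes were higher with such a p). The fold rule was passed upwards by 4 genes (6.82% of all genes), namely BUB1, SKA3, CENPJ and BIRC5, and downwards by 2 (5.29%), CENPI and TTK. SKA3, CENPJ, BIRC5 and TTK are dim, and with a floor of 32 no gene passed upwards. Both 48 hr arrays lay above both controls in 8 genes (15.7% of all genes) and below them in 3 (13.4%). Of the genes highest at 72 hrs, BUB1 had a 48 hr interval above 0 (0.019 to 1.49), while those of others spanned it, from -0.48 to 0.85 in CENPW, from -0.89 to 0.69 in NUF2 and from -0.97 to 0.88 in NDC80.

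The direct comparison of 72 with 48 hrs gave a median of 0.76 for the 35 genes (0.38 with the floor of 32). Upwards, 19 of them passed the fold rule (7.74% of all genes), and downwards 1 did, BIRC5 (-0.88, SE 0.61; 6.94% of all genes). Limma called 1 gene higher (0.0538%), CENPW, which rose by 3.10 between the time points (adjusted p = 0.024); the dimmer BUB1B probe set rose by 5.26 (adjusted p = 0.010). AURKB was higher by 2.70 (adjusted p = 0.12), NUF2 by 2.66 (adjusted p = 0.085) and BUB1 by 1.84 (adjusted p = 0.36). Both calls were lost when any array was left out (adjusted p = 0.092 to 0.20 for BUB1B), with the floor of 32 and without the trend.

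The arrays at 72 hrs differed between themselves more for these genes than for the array as a whole. In 31 of 35 genes the replicate 2 array was the lower, with a median difference of -0.56, while over all genes 50.4% were lower there and the median was -0.01. In the controls 14 of 35 were lower on replicate 2 and at 48 hrs 16 of 35. The median change at 72 hrs was accordingly 1.17 by the replicate 1 arrays and 0.52 by the replicate 2 arrays, and CENPC, CENPF, CENPU, MAD2L1, TTK and KNTC1 passed the fold rule on the means but not in both replicates. The probe sets for the 3' and 5' ends of GAPDH, whose gap widens as RNA degrades, were 2.47 and 3.31 apart in the controls (log2), 3.01 and 4.91 at 48 hrs, and 2.08 and 4.56 at 72 hrs, wider on replicate 2 each time; the part of RNA quality in the gap between replicates was not tested.

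**Figure D3:**
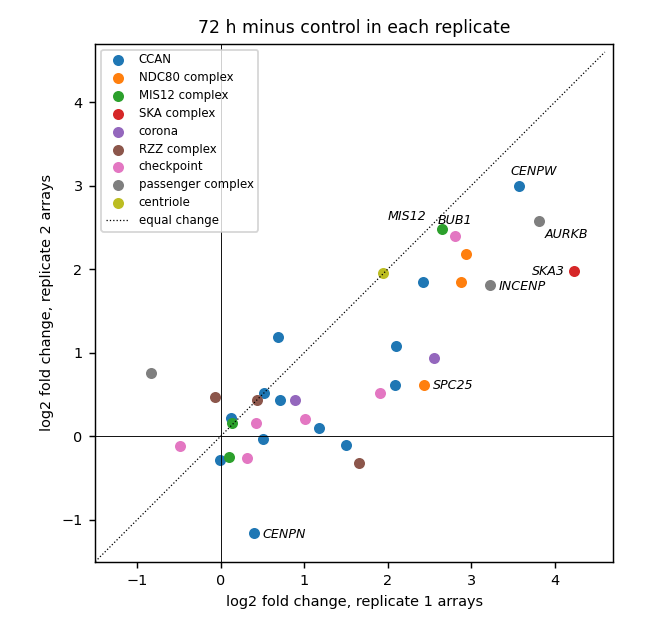
Log2 fold change at 72 hrs against control on the replicate 1 arrays (horizontal axis) and the replicate 2 arrays (vertical axis), 1 point per gene coloured by complex, with the line of equal change dotted. Arrays are matched by the number in their titles, and nothing shows that same-numbered arrays belong together. Points lie below the line in 28 of 35 genes, and the medians are 1.17 and 0.52; CENPW, AURKB, BUB1 and MIS12 are high in both.

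Probe sets of the same gene disagreed often. Of the 19 genes with over 1 probe set, 7 had probe sets whose differences at 72 hrs were over 1 log2 unit apart: BUB1B, CENPF, BUB1, CENPN, NUF2, TTK and ZWILCH. CENPF had 5 probe sets with differences from 0.21 to 4.19. The highest came from a dim probe set at 1.52 and 1.46 in the controls, 3.36 and 1.65 at 48 hrs, and 6.35 and 5.0 at 72 hrs (SE 0.73, limma adjusted p = 0.25), whose 72 hr arrays, both above 32, were far above the controls. For CENPF the brightest probe set gave the middle difference (0.66), with 0.21 and 0.59 below it and 2.33 and 4.19 above.

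NUF2 was measured alike by its brightest probe set (2.56) and the next (2.44, SE 0.55), and only the dimmest gave 0.48. BUB1 spanned -0.44 to 2.60, CENPN -0.38 to 2.51, TTK 0.00 to 1.21 and ZWILCH -1.25 to 0.20, in each case with the differing probe set under 32 in the controls. In BUB1, CENPN and TTK the brightest probe set was also under 32 in both controls. Over all 64 probe sets, 34 passed the fold rule upwards at 72 hrs (14% of all probe sets) and 1 downwards, the dim one of ZWILCH (9.16%). Genes without such disagreement include CENPO (-0.15 and -0.22), ZW10 (0.43 and 0.04) and NDC80 (2.37 and 1.56).

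**Figure D4:**
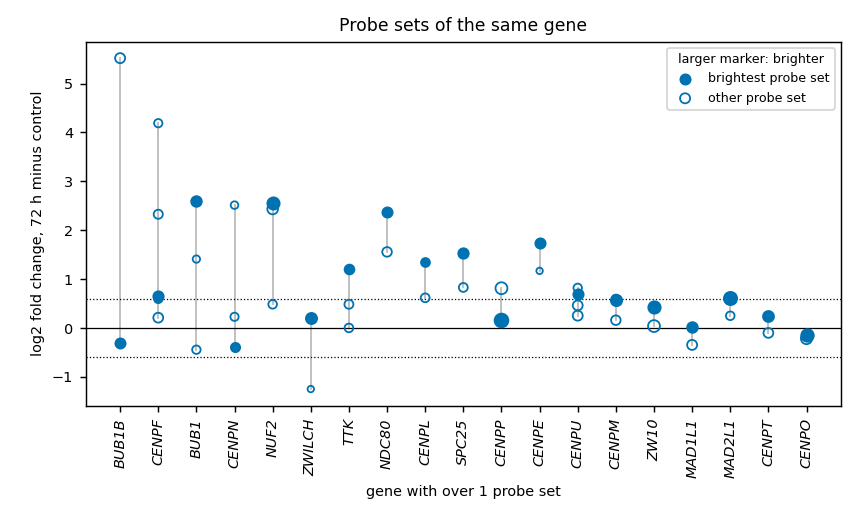
Log2 fold change at 72 hrs against control (vertical axis) for every probe set of the 19 genes with over 1, ordered by the distance between their probe sets; filled circles mark the brightest probe set and larger circles brighter ones. BUB1B spans -0.30 to 5.52 and CENPF 0.21 to 4.19, while those of CENPO lie at -0.15 and -0.22.

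Low intensities bear on much of the group. In 12 of the 21 genes higher at 72 hrs both control arrays were under 32, but both 72 hr arrays were under it in only 1 of them, CENPJ. Setting all values under 32 to 32 left 15 genes past the fold rule at 72 hrs, and the share of all genes with that floor is not given here. CENPW and NUF2, whose controls lie above it, kept their differences of 3.28 and 2.56, while AURKB gave 2.79, INCENP 2.27, BUB1 1.93, NDC80 1.62 and MIS12 1.59.

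Neighbouring parts of the mitotic machinery, from lists apart from the 35 genes, are given beside them with no test between the lists; over all genes 9.28% passed the fold rule upwards at 72 hrs and 6.26% downwards. Of 6 centromere loading and accessory genes found, 1 passed the fold rule upwards at 72 hrs and 1 downwards, with a median of 0.28. HJURP, the chaperone of the centromeric histone, was higher by 1.19 (SE 0.58) but under 32 on every array. Among 13 other kinetochore and shugoshin genes, 1 passed upwards and none downwards (median 0.07). It was SGO1, protector of centromeric cohesion (1.12, SE 0.51), which was under 32 on every array but replicate 1 at 72 hrs. KNL1, the scaffold that binds the BUB proteins, was dim on all arrays and differed by -0.04 (SE 0.56). Of 18 genes of the anaphase promoting complex, its activators and regulators, the target of the checkpoint, 4 passed upwards and 2 downwards, with a median of 0.00. The 4 were CDC20 at 0.96, FZR1 at 1.34, TRIP13 at 0.67 and CDC16 at 0.69, with FZR1 under 32 on every array. Limma called none of these 37 genes at either time. At 48 hrs 1 was lower with an unadjusted limma p under 0.05 (1.06% of all genes), and at 72 hrs 1 was higher (2.34%). Of the 35 kinetochore genes 15 were higher with such a p at 72 hrs.

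Most general markers of dividing cells were higher in the same arrays. Of 7 found that are not kinetochore genes, 6 passed the fold rule upwards at 72 hrs (9.28% of all genes), and the median of the 7 was 2.10. Limma called 3 of them higher (0.131% of all genes), MKI67, TOP2A and RRM2. The exception was PCNA, at 8.16 and 8.41 in the controls and 8.93 and 7.64 at 72 hrs, which differed by -0.00034 (SE 0.40). Summed intensities of the 7 were 598 and 654 in the controls, 704 and 646 at 48 hrs, and 3417 and 1895 at 72 hrs. Here also the replicate 2 array at 72 hrs was the lower of the pair. Markers of HCs, SCs, connective tissue, leukocytes and red blood cells (49 found) gave no limma call. At 48 hrs 3 of them were lower with an unadjusted limma p under 0.05 (1.06% of all genes) and 0 higher (1.38%). At 72 hrs 2 were higher (2.34%) and 2 lower (1.4%) with such a p. Those lower at 48 hrs were 2 HC genes and 1 SC gene. At 72 hrs the 2 higher were SC genes, and 1 HC gene and 1 SC gene were lower. Red blood cell genes (5 found) summed to 1041 and 181 in the controls, 487 and 290 at 48 hrs, and 733 and 236 at 72 hrs. On control replicate 1 HBA1 (9.64) weighed most, and HBZ and HEMGN were lower there than on control replicate 2. Leukocyte genes (9 found) summed to 984 to 1520 over the 6 arrays, with a median difference of 0.48 at 72 hrs. At that time 3 of them passed the fold rule upwards (9.28% of all genes) and 0 downwards (6.26%). At 48 hrs 2 passed upwards (6.82%). Connective tissue genes had a median of -0.74 at 72 hrs, but of -1.51 by the replicate 1 arrays and 0.12 by the replicate 2 arrays. Of the 8, 4 were past the rule downwards (6.26% of all genes) and 0 upwards (9.28%). The 4 were COL1A1, DCN, LUM and OGN. PDGFRB was lower by 0.34, while COL1A2, COL3A1 and POSTN were higher by 0.22, 0.28 and 0.49. Their sum was 3105 on control replicate 1 and 517 on control replicate 2. The part of these cell types in the kinetochore values was not tested.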

How the data were processed

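RNA of the basal BP was measured on 6 Affymetrix chicken arrays in 3 groups of 2. The intensity values were deposited by the authors on a linear scale; the submitters' notes name MAS5, and the methods of the study name dChip. The deposited intensity was transformed to log2 here, without another normalization. From the 38535 probe sets 153 controls were left out. The platform annotation names 13009 gene symbols.

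Differences are of group means of log2 values. Limma 3.58.1 in R 4.3.3 (lmFit, eBayes with trend; 3 residual and 4.75 prior degrees of freedom) was fitted over all arrays, with Benjamini-Hochberg adjustment over 38382 probe sets at 0.05, and tested on simulated data. The fold rule of 0.6 follows the methods. Python 3.11.15, pandas 2.3.3 and matplotlib 3.10.9 were used. The number of arrays limits precision.

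The genes and lists were chosen with earlier results of these data known. Values on every array were planned for genes brighter than the median probe set that passed limma, were among the 10 largest or 3 smallest changes at 72 hrs or the 3 largest or smallest at 48 hrs, and for genes whose probe sets differed by over 1; some others were added after their values were seen. Alternatives were quantile normalization, equal array medians, a floor of 32, a mean log2 intensity of at least 5, no trend, a replicate block, the mean of all probe sets and leaving out each array. A planned promoter motif search was not run, since no promoter sequences were used here.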

Additional observations from a re-analysis of the deposited data

Results flagged for a closer look

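The differences between the time points were past the limma threshold for CENPW (3.10, adjusted p = 0.024) and for the dimmer probe set of BUB1B (5.26, adjusted p = 0.010), which picked both out. Both calls were lost with any array left out, with the floor of 32 and without the intensity trend (for BUB1B adjusted p = 0.092 to 0.20, 0.27 and 0.10). In 4 other probe sets every 48 hr array lay below both controls and every 72 hr array above them, but the difference between the time points did not pass limma and is not shown. These are TTK with -0.67 at 48 hrs and 1.21 at 72 hrs, CENPQ with -0.23 and 0.52, the dimmer NDC80 probe set with -1.05 and 1.56, and a dim CENPF probe set with -0.69 and 2.33. The brightest NDC80 probe set differed by -0.05 at 48 hrs. The share of all probe sets that lay below the controls at 48 hrs and above them at 72 hrs is not given here. No group held enough arrays for a search for outlying arrays.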

How the results depend on the processing

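With 2 arrays a group the limma calls depend on the processing. The upward differences at 72 hrs of CENPW, AURKB and BUB1 did not turn under any alternative run. In each of them both 72 hr arrays lay far above both controls, so leaving out an array could not have turned the sign. Limma called 0 of the 35 genes higher at 72 hrs with the floor of 32 and 0 with no intensity trend, and leaving out an array gave 0 each time, against 3. The floor makes the arrays of many dim probe sets equal, which enters the fitted variances. From 48 to 72 hrs limma called 0 with the floor and 0 without the trend, but 2 with the replicate block and 3 with the mean of all probe sets, against 1. Over the whole array it called 11 of 38382 probe sets higher with the block, against 8. With the mean of all probe sets it called 15 of 13009 genes higher. Over all probe sets leaving out an array left 0 or 1 called higher at 72 hrs. Past the fold rule at 48 hrs, upward genes numbered 0 with the floor and 1 with a mean log2 intensity of at least 5 (downward 0 and 1), and 2 to 9 with an array left out (downward 1 to 4), the lowest without the 48 hr replicate 2 array and the highest without control replicate 2 (downward 1 without the 48 hr replicate 2 and 4 without the 48 hr replicate 1). The median at 48 hrs was 0.00 with the floor and 0.02 to 0.20 with an array left out. The number of downward genes at 72 hrs moved with the array left out. From 48 to 72 hrs downward genes numbered 0 with the floor and 0 with the intensity minimum, and their number moved with the array left out. The share of all genes past the fold rule under these settings is not given here.

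Some small differences changed sign. With the mean of all probe sets BUB1B was higher by 2.61 at 72 hrs (limma adjusted p = 0.023), by 2.51 between the time points (adjusted p = 0.033) and by 0.10 at 48 hrs, since the dimmer probe set enters; BUB1 at 72 hrs lost its call there (1.19, adjusted p = 0.97), so that the 3 called were CENPW, AURKB and BUB1B; CENPE at 48 hrs became -0.017, NUF2 at 48 hrs 0.073, MAD1L1 at 72 hrs -0.16 and CENPO between the time points 0.10. MAD1L1 at 72 hrs was -0.077 with quantile normalization and -0.075 with equal array medians. With the floor INCENP at 48 hrs became -0.077 and BUB1B between the time points 0.048. The cause of the other turns was not tested. With an array left out, differences at 48 hrs ran from -0.054 to 0.68 in CENPE, -0.62 to 0.76 in CENPH, -0.43 to 0.18 in CENPO, -0.20 to 0.11 in NDC80, -0.47 to 0.26 in NUF2, -0.31 to 0.19 in BUB1B, -0.28 to 0.50 in MIS12, -0.81 to 0.21 in NSL1 and -0.37 to 0.70 in INCENP. At 72 hrs they ran from -0.43 to 0.14 in CENPO, -0.74 to 0.14 in BUB1B, -0.44 to 0.49 in MAD1L1 and -0.64 to 0.50 in NSL1. Between the time points they ran from -0.29 to 0.52 in CENPC, -0.33 to 0.28 in CENPO, -0.68 to 0.20 in BUB1B, -0.089 to 0.85 in MAD1L1 and -0.34 to 0.80 in NSL1.

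Replicate numbers are shared by the groups in the titles, but nothing says that they mark a shared day or animals. Deviations of same-numbered arrays correlated over 9320 bright probe sets (0.44, 0.29 and 0.57 for the 3 pairs of groups), with only 2 numbers. Fitting the replicate number as a block gave 4 of the 35 genes higher at 72 hrs, NUF2 being added (adjusted p = 0.023, and 0.024 between the time points), and moved the calls over all probe sets from 18 higher and 16 lower to 28 and 22.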
